A study of Mus musculus with 78 samples.

Results

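The comparison described here sets mouse flank tissue from animals given the antibody G6 against flank tissue from animals given the antibody DC101, both labelled day 5 and both carrying the same VEGF-expressing virus. The members are the arrays that the source labels place in these groups, 8 for G6 and 8 for DC101, which makes 16 of the 78 arrays of the series, and all 14718 genes that passed the signal filter were tested between them. The mice were female athymic nudes, Crl:NU(NCr)-Foxn1nu, 4 to 6 weeks old. In all groups but the day 0 control the flank carried Ad-VEGF-A164, an adenovirus that makes the tissue produce an isoform of VEGF-A and grow new vessels. G6 was given at 10 mg per kg and DC101 at 20 mg per kg, so the antibody and its dose cannot be told apart. Beside these groups stand 8 arrays of untreated tissue with the virus at day 5 and 8 arrays of control flank at day 0, which the labels do not describe as uninjected. No group with an empty virus was analysed here, and the labels do not say what the day is counted from. The labels class the pair of antibodies together as directed to VEGF receptors and give no separate target for G6, so its target is left unstated here. DC101 is a rat antibody to mouse VEGFR2.

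VEGF-A is a secreted ligand that binds the endothelial receptors VEGFR1, the product of Flt1, and VEGFR2, the product of Kdr. VEGFR2 carries most of the signal for endothelial division, migration and permeability, while VEGFR1 binds the ligand tightly and signals weakly. Endothelial cells at the front of a growing vessel, called tip cells, switch on a set of genes of their own, and pericytes and a basement membrane cover the vessel as it matures. Athymic nude mice lack a working thymus and have few T cells.

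Levels below are log2(signal + 16) of a gene's brightest probe set, given as the lowest, the median and the highest of a group's 8 arrays. Differences are G6 minus DC101 on that log2 scale with the standard error (SE) of the limma fit and its adjusted p, and 0.05 was the threshold. Of the 14718 genes, 1688 (11.5%) passed it, 856 higher (5.82%) and 832 lower (5.65%) with G6, and 3709 had an unadjusted p under 0.05. Changes of at least 2-fold were found for 250 of them, 58 higher and 192 lower. Every G6 array lay below every DC101 array for 214 genes (1.45% of those tested) and above for 104 (0.707%). The median difference over all genes was 0.04. The flank was bulk tissue, in which fewer cells of a type and less RNA per cell cannot be told apart. Nothing links an array to an animal, and the design gives 5 animals as the least in a group of 8 arrays. If arrays shared animals, the p-values are too small.

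Several libraries stood apart. Arrays with neighbouring running numbers resembled each other, with correlations of their deviations from the group mean of 0.18 to 0.37 in G6 tissue (median -0.24 for other pairs of arrays) and -0.01 to 0.63 in DC101 tissue (median -0.28). With each such pair averaged to 1 value, 901 genes passed, 418 higher and 483 lower, and 889 of them were among the 1688. G6 arrays 13 and 14 had the highest endothelial levels of their group, and DC101 arrays 21 and 22 had low levels of dermal collagen genes and of Ccr2. Without arrays 13 and 14, 1623 genes passed, and without arrays 21 and 22, 1504. The ratio of the 3' to the 5' control probe sets, a measure of RNA integrity, was 1.32 to 2.43 for Actb in G6 tissue and 1.19 to 1.66 in DC101 tissue. The highest Actb ratios of each group were those of G6 arrays 13 and 14 (2.35 and 2.43) and DC101 arrays 21 and 22 (1.65 and 1.66). For Gapdh the ratio was 0.90 to 1.55 in G6 tissue and 0.785 to 1.01 in DC101 tissue. With these ratios as covariates 1773 genes passed, of which 1025 were among the 1688.

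The VEGF pathway was examined from the ligand outward. Vegfa had levels of 12.67, 13.85 and 14.28 in G6 tissue, against 12.52, 13.96 and 14.86 in DC101 tissue, 13.51, 14.06 and 14.87 in untreated tissue and 9.49, 10.18 and 10.91 in control flank. The groups given the antibodies overlapped almost wholly, with a difference of -0.03 (SE 0.39, adjusted p = 0.98). A second, dimmer Vegfa probe set gave a difference in the other direction, with means of 10.94 ± 0.33 in G6 tissue and 10.05 ± 0.38 in DC101 tissue (SD, n = 8 each), 9.77 in untreated tissue and 11.81 in control flank, and a difference of 0.88 (SE 0.18, adjusted p = 0.0002). Which transcripts each probe set reads, the virus's or the mouse's, was not tested. Pgf, a ligand of VEGFR1, had levels of 6.47, 7.93 and 9.23 in G6 tissue, against 8.12, 8.92 and 10.13 in DC101 tissue and 10.27, 10.53 and 10.66 in untreated tissue. Its difference of -0.96 did not pass (SE 0.44, adjusted p = 0.15). Vegfc, a ligand of VEGFR3, differed by -0.41 (adjusted p = 0.36), and its other 2 probe sets gave -1.22 (adjusted p = 0.038) and -0.60 (0.12).

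Receptor genes were lower with G6. Kdr had levels of 10.51, 10.75 and 12.18 in G6 tissue, against 12, 12.74 and 12.95 in DC101 tissue, 12.64, 13.34 and 13.84 in untreated tissue and 10.06, 10.83 and 11.11 in control flank. It fell by 1.55 (SE 0.26, adjusted p = 1.8e-05), and the groups overlapped only through G6 arrays 13 and 14, at 12.18 and 12.15. Without those arrays the difference was -1.92, but they were the highest of their group, so leaving them out could only enlarge the fall. Flt1 had levels of 9.94, 10.51 and 11.61 in G6 tissue, against 11.41, 12.01 and 12.58 in DC101 tissue, 12.84, 13.30 and 13.69 in untreated tissue and 9.40, 10.38 and 10.57 in control flank. It fell by 1.38 (SE 0.30, adjusted p = 0.00086). Every DC101 array of Flt1 lay below every untreated array, and the G6 arrays overlapped those of the control flank. Its other 3 probe sets gave -1.60, -1.43 and -1.91, all past the threshold. Flt4, which encodes VEGFR3, the receptor of lymphatic and sprouting endothelium, fell by 1.27 (SE 0.34, adjusted p = 0.0075) with no overlap between the groups, although with the RNA ratios as covariates its adjusted p was 0.10. Its other probe set gave -0.62 (adjusted p = 0.23), and there the groups overlapped. The co-receptor gene Nrp1 differed by -0.49 (adjusted p = 0.14), and its other 3 probe sets gave -0.59, -0.80 and -0.54, of which the last pair passed (adjusted p = 0.019 and 0.035).

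In the angiopoietin arm, Angpt2, a ligand stored and released by endothelium that loosens vessels, had levels of 9.12, 9.72 and 10.26 in G6 tissue, against 10.47, 10.95 and 11.25 in DC101 tissue and 11.43, 11.92 and 12.06 in untreated tissue. It fell by 1.16 (SE 0.28, adjusted p = 0.0031) without overlap. The orphan receptor gene Tie1 had levels of 8.15, 9.04 and 10.54 in G6 tissue, against 10.75, 11.36 and 12.11 in DC101 tissue and 11.75, 12.18 and 12.57 in untreated tissue. It fell by 2.12 (SE 0.38, adjusted p = 4.7e-05). Tek, the gene of the angiopoietin receptor Tie2, had levels of 11.29, 11.64 and 12.22 in G6 tissue, against 11.22, 12.25 and 13.04 in DC101 tissue, and its difference of -0.45 did not pass (adjusted p = 0.21). Of the 14 VEGF and angiopoietin genes tested, 5 were lower and 0 higher, with a median difference of -0.47.

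**Figure D1:**
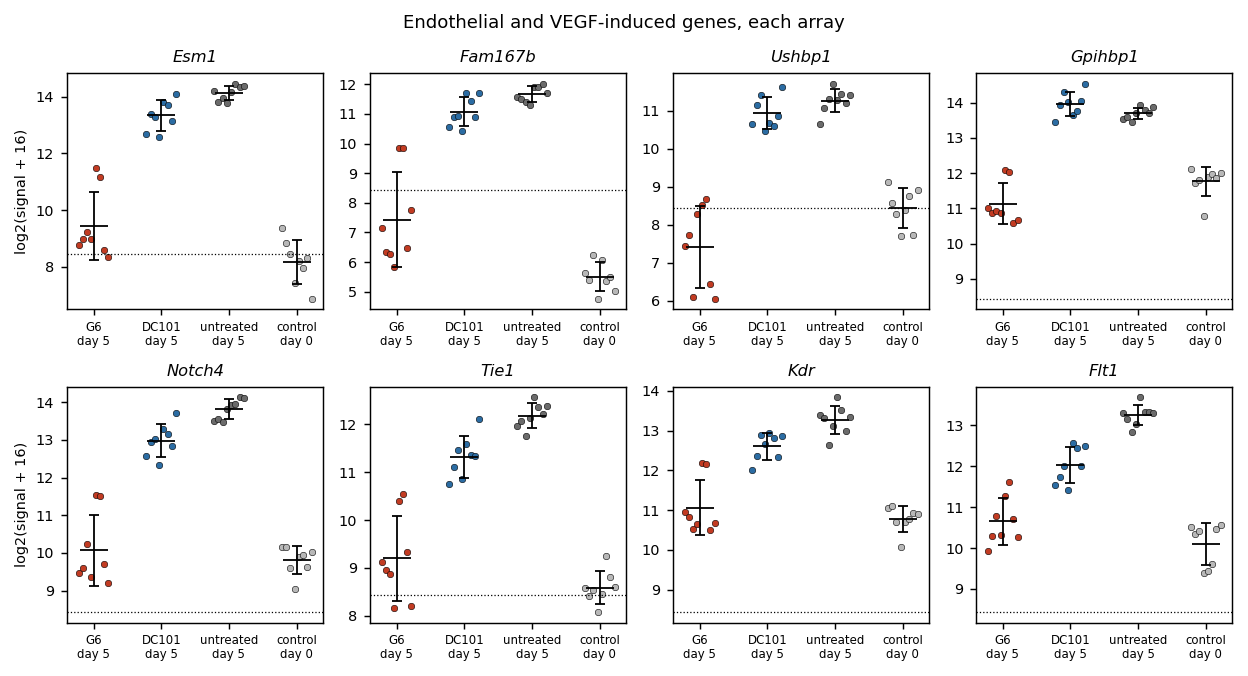
Level, as log2(signal + 16), of 8 endothelial and VEGF-induced genes on each array of G6 day 5, DC101 day 5, untreated day 5 and control day 0 tissue (8 arrays each). Horizontal marks and bars are the mean and SD, and the dotted line is the signal filter at 8.44. The G6 arrays lie below the DC101 arrays for all genes but Kdr and Flt1, where the groups overlap. Arrays 13 and 14 are the highest of the G6 group for Esm1 (11.49 at most), and several G6 groups lie at the height of the control flank.

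Genes that tip cells switch on held the largest fall among the vascular lists. Esm1, an endothelial proteoglycan made under VEGF, had levels of 8.33, 8.97 and 11.49 in G6 tissue, against 12.59, 13.34 and 14.09 in DC101 tissue, 13.80, 14.20 and 14.46 in untreated tissue and 6.87, 8.26 and 9.37 in control flank. It fell by 3.91 (SE 0.56, adjusted p = 4.8e-07). No G6 array reached the DC101 range, and all but G6 arrays 13 and 14 lay within the control range. Fam167b had levels of 5.82, 6.81 and 9.84 in G6 tissue, against 10.42, 10.92 and 11.70 in DC101 tissue, and fell by 3.63 (SE 0.50, adjusted p = 2.2e-07). Kcne3, a potassium channel subunit, had levels of 9.13, 9.98 and 11.20 in G6 tissue, against 11.76, 12.42 and 12.90 in DC101 tissue, 12.89, 13.55 and 13.79 in untreated tissue and 6.18, 7.31 and 8.04 in control flank. It fell by 2.37 (SE 0.41, adjusted p = 2.7e-05), and the G6 arrays overlapped neither the DC101 arrays above them nor the control arrays below them.

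Apln encodes apelin, a peptide of sprouting endothelium. It had levels of 10.42, 10.62 and 11.25 in G6 tissue, against 11.13, 11.38 and 11.95 in DC101 tissue, 11.61, 12.09 and 12.38 in untreated tissue and 9.65, 10.15 and 10.89 in control flank. It fell by 0.70 (SE 0.20, adjusted p = 0.012), and the groups overlapped. With neighbouring arrays averaged the adjusted p was 0.082. Aplnr, the apelin receptor gene, fell by 1.64 (SE 0.29, adjusted p = 4.8e-05), with levels of 12.76, 13.20 and 15.09 in G6 tissue, against 15.01, 15.30 and 15.36 in DC101 tissue. Its other probe set gave -1.07 (adjusted p = 0.0086), with overlapping arrays. Adm, the gene of the vasodilator adrenomedullin, had levels of 10.94, 11.01 and 11.77 in G6 tissue, against 11.75, 12.08 and 12.76 in DC101 tissue and 10.77, 11.42 and 11.71 in untreated tissue. It fell by 0.92 (SE 0.24, adjusted p = 0.006; 0.06 with neighbouring arrays averaged), and here the DC101 arrays stood above every untreated array. Of the 24 tip-cell and VEGF-induced genes tested, 15 were lower and 1 was higher, with a median difference of -0.90. With neighbouring arrays averaged 10 were lower and 0 higher. The higher one was the calcineurin inhibitor gene Rcan1 (0.34, adjusted p = 0.045; 0.06 with neighbouring arrays averaged, 0.055 without DC101 arrays 21 and 22 and 0.11 with the RNA ratios as covariates). Its other probe set gave -2.29 (adjusted p = 2e-10), with every G6 array below every DC101 array, so that the direction depends on the probe set.

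Pan-endothelial genes, which endothelium of most vessels makes, were lower as a group. Of 29 tested, 24 were lower and 0 higher, and in 19 every G6 array lay below every DC101 array. Their median difference was -1.38. The mean level over the list was 10.82 ± 0.42 in G6 tissue, against 12.22 ± 0.25 in DC101 tissue, 12.68 ± 0.17 in untreated tissue and 10.58 ± 0.23 in control flank (SD, n = 8 each). With neighbouring arrays averaged, and also with the RNA ratios as covariates, 20 were lower.

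Ushbp1, a harmonin-binding protein, had levels of 6.06, 7.59 and 8.68 in G6 tissue, against 10.46, 10.78 and 11.64 in DC101 tissue, 10.66, 11.31 and 11.71 in untreated tissue and 7.70, 8.48 and 9.13 in control flank. It fell by 3.53 (SE 0.41, adjusted p = 4.1e-09). Gpihbp1, which anchors lipoprotein lipase on the capillary wall, had levels of 10.58, 10.90 and 12.08 in G6 tissue, against 13.46, 13.98 and 14.53 in DC101 tissue, 13.46, 13.70 and 13.92 in untreated tissue and 10.79, 11.88 and 12.12 in control flank. It fell by 2.83 (SE 0.30, adjusted p = 3.7e-10). For both genes the DC101 arrays overlapped the untreated ones, and the G6 arrays overlapped the control flank.

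Robo4, an endothelial guidance receptor, had levels of 9.58, 9.82 and 10.55 in G6 tissue, against 11.64, 12.20 and 13.01 in DC101 tissue, and fell by 2.27 (SE 0.24, adjusted p = 3.7e-10). Emcn, a sialomucin of capillaries and veins, had levels of 10.09, 10.81 and 11.23 in G6 tissue, against 12.48, 12.85 and 13.52 in DC101 tissue, and fell by 2.24 (SE 0.33, adjusted p = 7.7e-07). Cdh5 encodes VE-cadherin, the adhesion molecule of endothelial junctions. It had levels of 10.50, 10.97 and 12.56 in G6 tissue, against 12.92, 13.35 and 14.08 in DC101 tissue, and fell by 2.08 (SE 0.29, adjusted p = 3.6e-07). Its other probe set gave a fitted -1.03 (adjusted p = 0.0015), with every G6 array below the filter level and the groups overlapping. Further falls were those of the adhesion gene Icam2 (2.08 on the log2 scale), the secreted Egfl7 (2.05), the junction gene Pecam1 (1.49), the transcription factor gene Erg (1.40) and the fenestral diaphragm gene Plvap (1.16), all past the threshold. The other Erg probe set gave a fitted -2.27 (adjusted p = 4.9e-06), with every G6 array below the filter level. With the RNA ratios as covariates Pecam1 (adjusted p = 0.088) and Erg (0.07) did not pass. The 5 genes that did not pass were Tal1, Fli1, Sox7, Cd34 and Vwf. Vwf, the gene of von Willebrand factor, had levels of 10.20, 10.77 and 11.64 in G6 tissue, against 9.42, 10.90 and 11.25 in DC101 tissue, 9.07, 9.64 and 10.22 in untreated tissue and 10.57, 11.08 and 11.57 in control flank. Its difference was 0.30 (SE 0.30, adjusted p = 0.58). Cd34, also made by dermal fibroblasts, differed by -0.08 (SE 0.20, adjusted p = 0.83).

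The bases before the start site are shown for 3 pan-endothelial genes and for Esm1. The 3 had the largest falls among the lower genes whose window held the motif below. Why the pan-endothelial genes were lower together was not tested. The sequences are the 250 bases before the start in RefSeq on GRCm38.p6, 5' to 3' on the gene's strand. Capitals mark AGGAAG or its reverse complement, a form of the GGAA core that ETS transcription factors such as Erg and Fli1 bind. The motif was chosen after the values were seen.
Ushbp1, chr8:71395802-71396051, minus strand: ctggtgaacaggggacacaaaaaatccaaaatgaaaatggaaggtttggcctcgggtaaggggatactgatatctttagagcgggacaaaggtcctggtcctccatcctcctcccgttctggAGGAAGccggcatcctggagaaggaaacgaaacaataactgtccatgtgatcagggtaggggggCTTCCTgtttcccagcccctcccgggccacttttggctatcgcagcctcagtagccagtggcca
Robo4, chr9:37401722-37401971, plus strand: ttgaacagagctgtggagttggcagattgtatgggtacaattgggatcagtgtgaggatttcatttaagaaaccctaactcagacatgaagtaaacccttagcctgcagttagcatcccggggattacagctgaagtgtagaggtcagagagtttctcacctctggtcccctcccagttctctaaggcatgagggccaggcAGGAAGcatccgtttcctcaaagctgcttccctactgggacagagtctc
Emcn, chr3:137340828-137341077, plus strand: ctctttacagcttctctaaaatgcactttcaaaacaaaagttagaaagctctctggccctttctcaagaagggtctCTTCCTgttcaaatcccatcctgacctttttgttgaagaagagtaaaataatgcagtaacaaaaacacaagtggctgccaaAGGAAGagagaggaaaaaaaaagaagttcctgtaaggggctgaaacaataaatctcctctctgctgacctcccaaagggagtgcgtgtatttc
Esm1, chr13:113209409-113209658, plus strand: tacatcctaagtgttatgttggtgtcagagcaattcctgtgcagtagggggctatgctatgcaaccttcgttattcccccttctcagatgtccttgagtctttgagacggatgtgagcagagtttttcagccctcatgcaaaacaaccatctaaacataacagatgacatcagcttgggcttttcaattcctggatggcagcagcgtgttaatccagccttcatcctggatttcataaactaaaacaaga
The Esm1 window holds no AGGAAG. Of the 29 pan-endothelial genes 14 had a window in the table, and 9 of the 14 held AGGAAG on either strand, against 29.5% of all 32851 windows and 32.4% of the tested genes with a window. Of the 24 genes that were lower, 12 had a window, and 8 of these held it. CGGAAG, another ETS-type form, was in 2 of the 14, against 13.6% of all windows and 24.9% of the tested genes with a window. GGAAGT was in 4, against 19.7% and 25.5%. The 3 motifs can overlap each other by the shared GGAAG. A match describes the letters and not a bound site.

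Arterial endothelium is set by Notch signalling between neighbouring cells. Notch4, the endothelial Notch receptor gene, had levels of 9.21, 9.66 and 11.55 in G6 tissue, against 12.33, 12.99 and 13.72 in DC101 tissue, 13.47, 13.88 and 14.13 in untreated tissue and 9.05, 9.92 and 10.16 in control flank. It fell by 2.90 (SE 0.37, adjusted p = 3e-08) without overlap, while its other probe set gave -0.56 (adjusted p = 0.015) with overlapping arrays. Gja4, a connexin of arterial endothelium, had levels of 8.78, 9.55 and 10.85 in G6 tissue, against 11.44, 11.90 and 12.84 in DC101 tissue, and fell by 2.19 (SE 0.33, adjusted p = 1.8e-06). The groups of Gja4 did not overlap. The tip-cell Notch ligand gene Dll4 fell by 1.29 (SE 0.21), with levels of 7.70, 8.59 and 8.84 in G6 tissue, against 9.18, 9.85 and 10.45 in DC101 tissue and 10.54, 11 and 11.35 in untreated tissue. Its other probe set gave -3.04 (adjusted p = 6.1e-06), also without overlap. The Notch target genes Hey1 and Hes1 fell by 1.55 and 0.72. Of the 18 arterial and Notch genes tested, 7 were lower and 0 higher, with a median difference of -0.48.

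Of 15 venous and lymphatic genes tested, 3 were higher and 2 lower, with a median difference of 0.25. Over all genes tested 5.82% were higher and 5.65% lower. With neighbouring arrays averaged 1 was higher and 2 lower, and without DC101 arrays 21 and 22, 1 higher and 3 lower. Ackr1, the chemokine-binding receptor of venules, had levels of 11.47, 11.90 and 12.18 in G6 tissue, against 10.22, 11.10 and 11.73 in DC101 tissue, 9.91, 10.47 and 10.93 in untreated tissue and 11.46, 11.84 and 12.26 in control flank. It rose by 0.80 (SE 0.18, adjusted p = 0.00099). Selp, the gene of P-selectin, rose by 0.68 (adjusted p = 0.0096), and the adjusted p was 0.069 with neighbouring arrays averaged, 0.088 without DC101 arrays 21 and 22 and 0.11 without G6 arrays 13 and 14. Its other 2 probe sets gave 1.42 and 0.70, both past the threshold. Reln, which lymphatic vessels secrete, rose by 1.02 (SE 0.30, adjusted p = 0.015), with an adjusted p of 0.091 when neighbouring arrays were averaged and 0.12 without DC101 arrays 21 and 22. Flt4, above, and the scavenger receptor gene Stab1 (-0.82, adjusted p = 0.0021), which macrophages also make, were lower. The lymphatic marker Lyve1 had levels of 11.46, 12.09 and 12.93 in G6 tissue, against 11.81, 13.30 and 13.70 in DC101 tissue, and did not pass (-0.85, adjusted p = 0.14).

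Some transcripts of pericytes, smooth muscle and basement membrane were lower. Of 22 pericyte and smooth muscle genes tested, 9 were lower and 1 higher, with a median difference of -0.63, and with neighbouring arrays averaged 3 were lower and 0 higher. Rgs5, a pericyte marker, had levels of 13.07, 13.50 and 14.49 in G6 tissue, against 14.60, 15.01 and 15.24 in DC101 tissue, 14.58, 15.06 and 15.49 in untreated tissue and 13.72, 14.14 and 14.74 in control flank. It fell by 1.3 (SE 0.26, adjusted p = 0.00033). Mcam, shared by pericytes and endothelium, fell by 1.52 (SE 0.32, adjusted p = 0.00046), and the contractile genes Tagln and Acta2 fell by 1.44 and 1.0, the fall of Acta2 with an adjusted p of 0.065 when neighbouring arrays were averaged. On the probe sets used for these 4 genes the groups did not overlap. The other Acta2 probe sets gave -0.62 and -0.36 without a call (adjusted p = 0.41 and 0.38), and there the groups overlapped. Those of Rgs5 gave -1.92, -1.49 and -2.83, all past the threshold, with overlap in the one at -1.49. Cnn1, the gene of a smooth muscle calponin, had levels of 4.71, 6.33 and 7.34 in G6 tissue, against 7.56, 8.29 and 10.09 in DC101 tissue and 7.21, 9.19 and 9.89 in control flank. It was at least 1.13-fold lower, since every G6 array lay below the filter level (fitted difference -2.51, adjusted p = 0.012; 0.074 with neighbouring arrays averaged). Myh11, smooth muscle myosin, had levels of 8.80, 9.07 and 9.80 in G6 tissue, against 9.85, 10.40 and 10.94 in DC101 tissue. It did not pass (-1.23, SE 0.53, adjusted p = 0.12), although no G6 array reached the DC101 range. The peptidase gene Anpep was the 1 that rose (0.62, adjusted p = 0.033; 0.74 with the RNA ratios as covariates, 0.071 with neighbouring arrays averaged).

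Basement membrane genes were lower in 9 of 16 and higher in 0, with a median difference of -0.57, and 5 were lower with neighbouring arrays averaged. Col4a2, a chain of type IV collagen, had levels of 12.68, 13.04 and 14.15 in G6 tissue, against 14.37, 14.75 and 15.33 in DC101 tissue, 15.16, 15.31 and 15.60 in untreated tissue and 12.10, 12.70 and 13.29 in control flank. It fell by 1.52 (SE 0.27, adjusted p = 4.4e-05). Its partner chain gene Col4a1 fell by 1.35 and the endostatin precursor gene Col18a1 by 1.01. Nid2, which links laminin to collagen IV, fell by 1.56 (SE 0.27, adjusted p = 3e-05), with levels of 9.63, 10.43 and 10.68 in G6 tissue, against 11.45, 11.68 and 12.77 in DC101 tissue and 12.82, 13.37 and 13.76 in untreated tissue.

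Matrix genes of other kinds were examined next. In the wound matrix list 2 of 20 genes were lower and 0 higher, against 5.65% lower and 5.82% higher over all genes tested. Adam12, a metalloprotease of activated stroma, had levels of 10.23, 10.68 and 11.95 in G6 tissue, against 11.81, 12.32 and 13.19 in DC101 tissue and 13.11, 13.47 and 13.90 in untreated tissue, and fell by 1.42 (SE 0.32, adjusted p = 0.0012). Plaur, the urokinase receptor gene, fell by 0.54 (adjusted p = 0.036; 0.15 with neighbouring arrays averaged). No fibrillar collagen or resting dermis gene of 20 and no matrix metalloproteinase of 14 passed. The level over the collagen list was 13.51 ± 0.13 in G6 tissue, against 13.32 ± 0.76 in DC101 tissue (SD, n = 8 each), where arrays 21 and 22 were the lowest. Of 29 cell cycle genes 0 passed, with a median difference of -0.36 and list levels of 10.60 ± 0.49 in G6 tissue, against 10.90 ± 0.28 in DC101 tissue, 11.44 ± 0.13 in untreated tissue and 9.91 ± 0.85 in control flank.

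**Figure D2:**
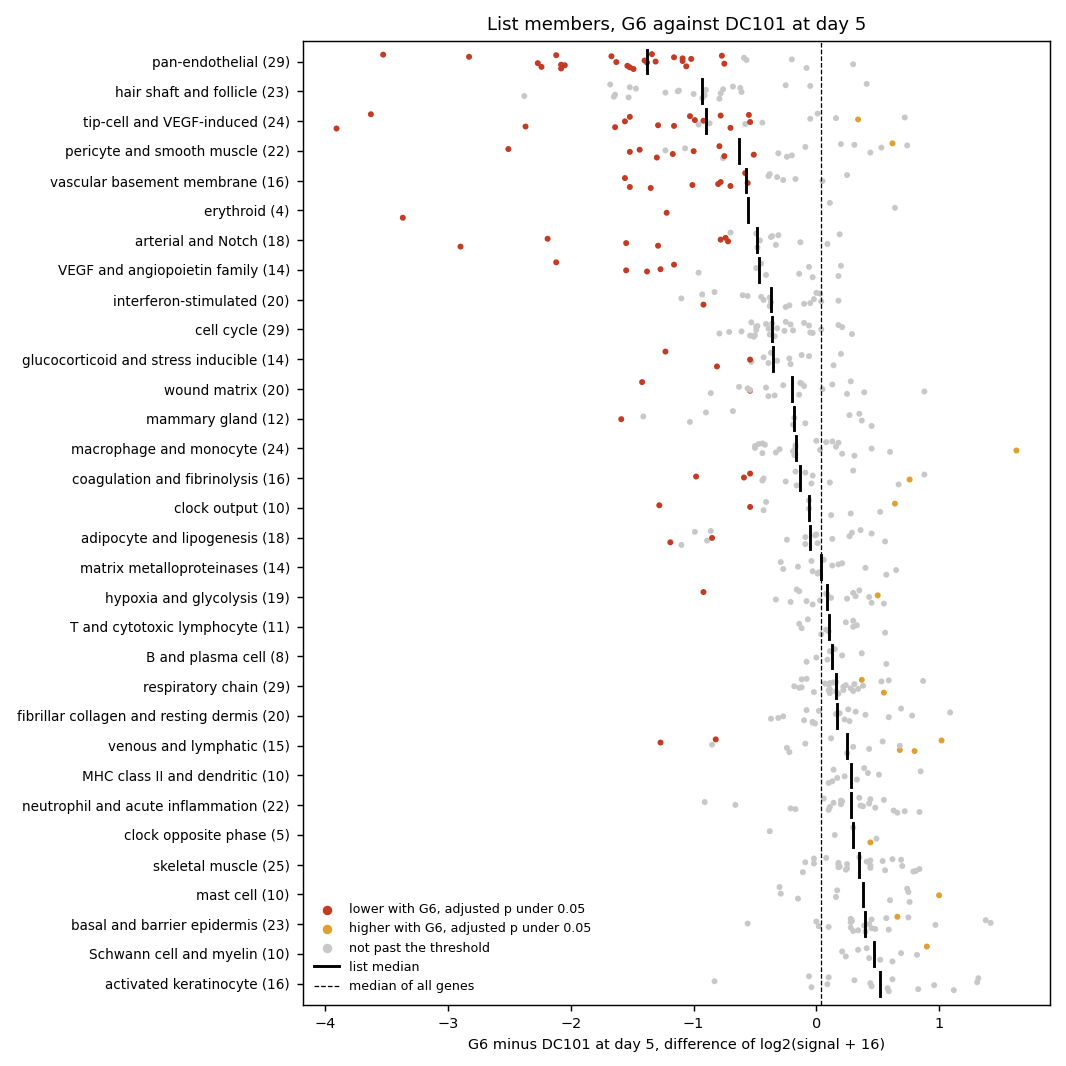
Difference of log2(signal + 16), G6 minus DC101 at day 5, for every tested member of the 32 gene lists, with the number of members in brackets. Points in colour passed the threshold, black bars are list medians and the dashed line is the median of all genes at 0.04. The pan-endothelial list has the lowest median, -1.38, with 24 of 29 members lower.

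Leukocyte lists gave at most 1 call each, where 11.5% of all genes tested passed. Of 24 macrophage and monocyte genes 1 passed, Ccr2, the chemokine receptor of inflammatory monocytes. It had levels of 13.11, 13.65 and 14.64 in G6 tissue, against 10.20, 12.71 and 12.95 in DC101 tissue, 12.49, 12.86 and 13.18 in untreated tissue and 9.04, 10.23 and 11.53 in control flank. It rose by 1.63 (SE 0.35, adjusted p = 0.00073) without overlap, and by 0.99 without DC101 arrays 21 and 22, which were the lowest (adjusted p = 0.037). Its other 3 probe sets gave -0.81 (adjusted p = 0.028), 0.36 (0.30) and 0.26 (0.56), so the direction depends on the probe set. The macrophage list had levels of 13.19 ± 0.27 in G6 tissue, against 13.21 ± 0.25 in DC101 tissue (SD, n = 8 each). No gene passed among 22 neutrophil and acute inflammation genes, 11 T cell, 8 B cell and 10 MHC class II and dendritic genes. Of 20 interferon-stimulated genes 1 was lower, Rsad2 (-0.92, SE 0.29, adjusted p = 0.026; 0.077 with neighbouring arrays averaged), and its other 2 probe sets gave -1.37 and -1.12. Of 10 mast cell genes 1 was higher, the mast cell receptor Mrgprb1 (1.0, adjusted p = 0.036), which did not pass with neighbouring arrays averaged (0.085), while 5 of the 10 were higher with the RNA ratios as covariates.

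**Figure D3:**
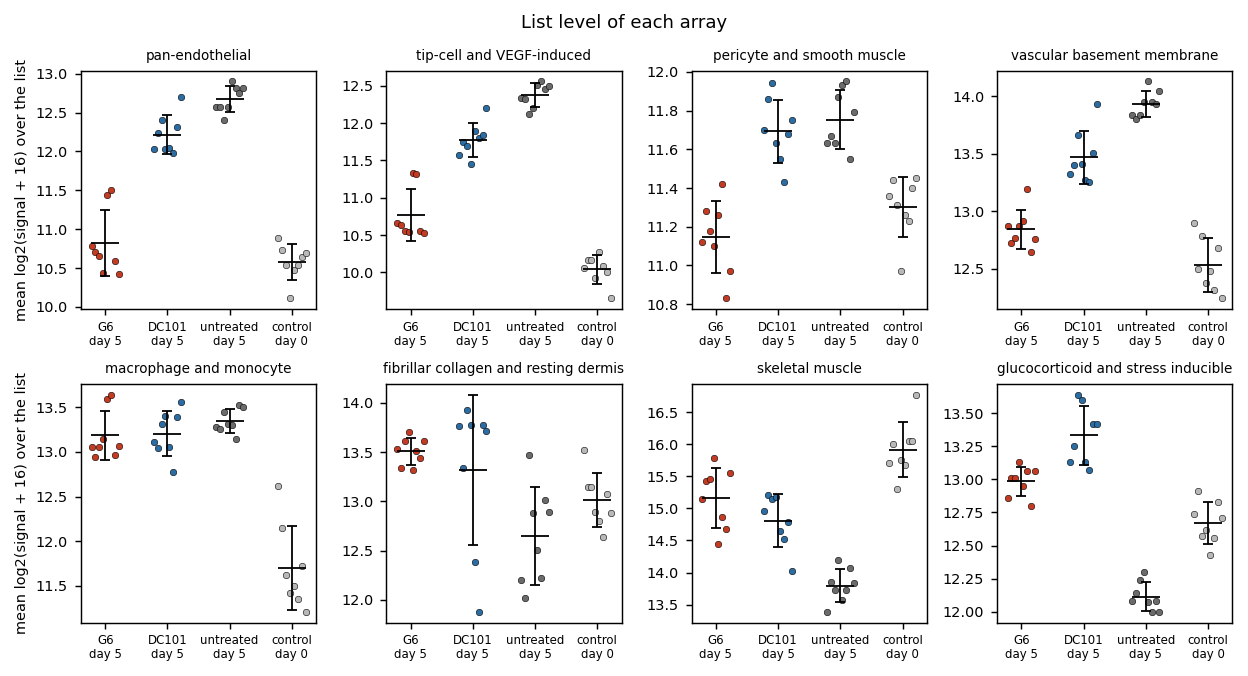
Mean log2(signal + 16) over the tested genes of 8 lists on each array of G6 day 5, DC101 day 5, untreated day 5 and control day 0 tissue (8 arrays each), with the mean and SD. The vascular lists in the upper row are lower in G6 tissue (pan-endothelial 10.82 against 12.22 in DC101 tissue), the macrophage list stands at 13.19 in G6 tissue and 13.21 in DC101 tissue, and 2 DC101 arrays are low in the collagen list.

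The other tissues of the flank were present on every array, with list levels of 15.17 ± 0.47 for skeletal muscle, 13.40 ± 0.66 for barrier epidermis and 12.03 ± 0.23 for adipocyte genes in G6 tissue, against 14.81 ± 0.41, 12.95 ± 0.57 and 12.27 ± 0.40 in DC101 tissue (SD, n = 8 each). Over all genes tested 5.82% were higher and 5.65% lower, the shares to set beside the counts of this paragraph. None of 25 skeletal muscle genes passed, with a median difference of 0.35, and of 29 respiratory chain genes 2 were higher, Ndufa5 (0.55) and Atp5a1 (0.37). Both lost the call with neighbouring arrays averaged (adjusted p = 0.074 and 0.11). The other Ndufa5 probe set gave 0.30 (adjusted p = 0.33), and the other Atp5a1 ones gave -0.04 (0.87) and 0.03 (0.94). Of 23 barrier epidermis genes 1 was higher, Itgb4, an integrin of the basal layer (0.66, adjusted p = 0.0071; 0.13 with the RNA ratios as covariates). Hair genes spread widely, with list levels of 10.88 ± 1.09 in G6 tissue, against 11.89 ± 1.55 in DC101 tissue, a median difference of -0.93 and 0 of 23 passing. Of 16 activated keratinocyte genes 0 passed. Lalba, a milk protein gene, was lower (fitted difference -1.59, adjusted p = 0.023; 0.10 with neighbouring arrays averaged) with every G6 array, 5 of 8 DC101 arrays and the DC101 mean below the filter level, so that no bound can be given, and it was the 1 of 12 mammary genes that passed. Ngfr, a nerve growth factor receptor of Schwann cells, was higher (0.90, adjusted p = 0.043; 0.17 with neighbouring arrays averaged), the 1 of 10 Schwann genes that passed.

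Of 18 adipocyte and lipogenesis genes 2 were lower and 0 higher, against 5.65% lower and 5.82% higher over all genes tested. Fabp4, a fatty acid carrier of adipocytes and capillary endothelium, had levels of 14.27, 15.08 and 15.69 in G6 tissue, against 15.87, 16.25 and 16.46 in DC101 tissue, 15.73, 16.03 and 16.15 in untreated tissue and 15.95, 16.52 and 16.81 in control flank. It fell by 1.19 (SE 0.18, adjusted p = 2.4e-06) to below every array of the 3 other groups, and its other 3 probe sets gave -2.06, -1.72 and -0.71, all past the threshold. Lipe, the hormone-sensitive lipase gene, fell by 0.85 (SE 0.22, adjusted p = 0.0062). Adipoq, the adiponectin gene of adipocytes, had levels of 12.36, 12.72 and 13.29 in G6 tissue, against 12.39, 13.87 and 15.12 in DC101 tissue, and did not pass (-1.10, adjusted p = 0.11).

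Of 10 clock output genes 2 were lower and 1 higher, against 5.65% and 5.82% of all genes tested. Of 5 clock genes of the opposite phase 1 was higher. These lists, and that of the glucocorticoid response, were written down with the values of this series in view. Per2, a repressor of the clock, had levels of 7.03, 7.90 and 8.31 in G6 tissue, against 8.48, 9.08 and 9.93 in DC101 tissue, 7.16, 8.11 and 8.50 in untreated tissue and 9.33, 9.74 and 9.98 in control flank. It was at least 1.61-fold lower, since every G6 array lay below the filter level (fitted difference -1.28, SE 0.16, adjusted p = 3e-08). Its other probe set gave -0.04 (adjusted p = 0.90). Per1 fell by 0.54 (SE 0.14, adjusted p = 0.006; 0.073 with neighbouring arrays averaged), with levels of 11.56, 11.79 and 12.12 in G6 tissue, against 12.17, 12.30 and 12.65 in DC101 tissue and 10.48, 10.82 and 11.35 in untreated tissue. Per3 rose by 0.64 (SE 0.15, adjusted p = 0.0013), and its 4 other probe sets gave -0.07 to 0.30 with no call. Arntl, the activator of the clock, rose by 0.44 (SE 0.10, adjusted p = 0.0024), with levels of 10.60, 10.84 and 11.19 in G6 tissue, against 9.96, 10.44 and 10.84 in DC101 tissue, and its other probe set gave 0.30 (adjusted p = 0.24).

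Of 14 glucocorticoid and stress-inducible genes 3 were lower and 0 higher, against 5.65% and 5.82% of all genes tested. Their median difference was -0.35. The list level was 12.98 ± 0.11 in G6 tissue, against 13.33 ± 0.22 in DC101 tissue, 12.11 ± 0.11 in untreated tissue and 12.67 ± 0.16 in control flank (SD, n = 8 each), so that both antibody groups stood above untreated tissue. Angptl4, an inhibitor of lipoprotein lipase, had levels of 10.75, 11.03 and 11.86 in G6 tissue, against 11.98, 12.50 and 12.77 in DC101 tissue, 12.15, 12.64 and 13.07 in untreated tissue and 10.23, 11.70 and 12.79 in control flank. It fell by 1.23 (SE 0.28, adjusted p = 0.0013). Fkbp5, a chaperone of the glucocorticoid receptor, had levels of 10.80, 11.26 and 11.63 in G6 tissue, against 11.45, 12.21 and 12.41 in DC101 tissue and 11.45, 11.51 and 11.77 in untreated tissue. It fell by 0.81 (SE 0.17, adjusted p = 0.00049), with 8 of 8 G6 arrays below the DC101 mean.

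**Figure D4:**
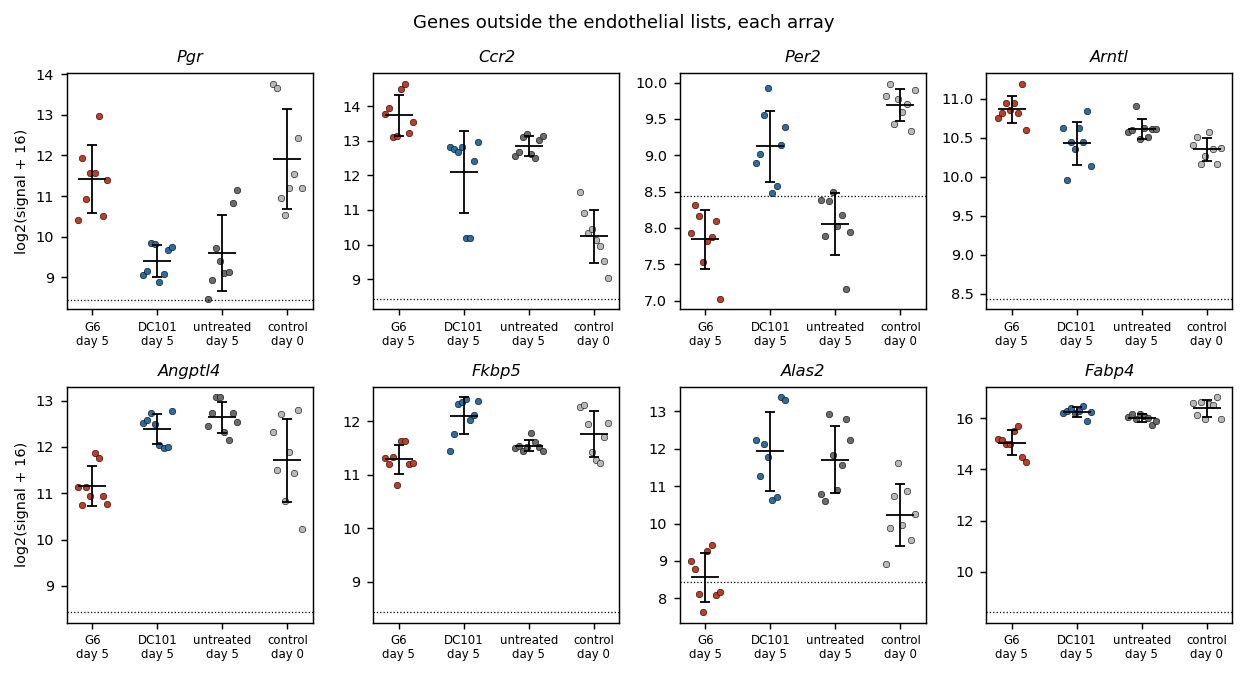
Level, as log2(signal + 16), of 8 genes outside the endothelial lists on each array of G6 day 5, DC101 day 5, untreated day 5 and control day 0 tissue (8 arrays each), with mean and SD and the signal filter at 8.44 as a dotted line. Pgr and Ccr2 are higher in G6 tissue, DC101 arrays 21 and 22 are the 2 low points of Ccr2, and Per2, Angptl4, Alas2 and Fabp4 are lower in G6 tissue without overlap.

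Of 19 hypoxia and glycolysis genes 1, Adm above, was lower and 1, the pyruvate dehydrogenase kinase gene Pdk1, was higher (0.50, adjusted p = 0.049; 0.13 with neighbouring arrays averaged). The other Pdk1 probe sets gave 0.23, 0.39 and -0.29 with no call (adjusted p = 0.58, 0.22 and 0.58). Of 16 coagulation and fibrinolysis genes 3 were lower and 1 higher, and with neighbouring arrays averaged 1 was lower and 0 higher. Over all genes tested 5.65% were lower and 5.82% higher, the shares to set beside both lists. Tfpi2, a protease inhibitor, had levels of 9.94, 10.45 and 11.10 in G6 tissue, against 11.03, 11.44 and 12.47 in DC101 tissue and 12.22, 12.58 and 13 in untreated tissue, and fell by 0.98 (SE 0.23, adjusted p = 0.0019). Tfpi, the inhibitor of the tissue factor pathway, fell by 0.59 (adjusted p = 0.038; 0.11 with neighbouring arrays averaged), and its other 3 probe sets gave -0.18, -0.52 and -0.64, of which the first did not pass (adjusted p = 0.60). Thbd, thrombomodulin, an anticoagulant receptor of resting endothelium, rose by 0.76 (SE 0.23, adjusted p = 0.018; 0.08 with neighbouring arrays averaged and 0.20 without DC101 arrays 21 and 22). It had levels of 12.80, 13.12 and 14.04 in G6 tissue, against 11.56, 12.55 and 13.25 in DC101 tissue, 11.64, 12.04 and 12.73 in untreated tissue and 12.96, 13.34 and 14.37 in control flank.

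Erythroid transcripts stand for young red cells in the sampled tissue, and 2 of 4 genes were lower, against 5.65% of all genes tested. Alas2, the heme synthesis enzyme of red cell precursors, had levels of 7.64, 8.49 and 9.44 in G6 tissue, against 10.62, 11.96 and 13.38 in DC101 tissue, 10.61, 11.70 and 12.93 in untreated tissue and 8.93, 10.11 and 11.61 in control flank. It fell by 3.37 (SE 0.61, adjusted p = 5.7e-05) without overlap. Slc4a1, the anion exchanger of red cells, fell by 1.22 (SE 0.33, adjusted p = 0.0078; 0.079 with neighbouring arrays averaged).

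Among the 15 largest falls over all genes were 4 outside the lists in which no G6 array reached the DC101 range, Pcdh12, Btnl9, Kcnq1 and Ces2e. Pcdh12, an endothelial protocadherin, had levels of 6.66, 7.60 and 9.96 in G6 tissue, against 10.04, 10.99 and 11.71 in DC101 tissue, and fell by 2.88 (SE 0.39, adjusted p = 2e-07). Btnl9, a butyrophilin-like gene, had levels of 9.26, 9.59 and 11.92 in G6 tissue, against 12.10, 12.89 and 13.33 in DC101 tissue, and fell by 2.68 (SE 0.35, adjusted p = 9e-08). Kcnq1, a potassium channel that pairs with Kcne3 in other tissues, was at least 2.51-fold lower, with levels of 6.32, 7.27 and 7.69 in G6 tissue, against 8.90, 9.77 and 10.50 in DC101 tissue and 10.21, 10.49 and 10.69 in untreated tissue (fitted difference -2.57, SE 0.37, adjusted p = 6.2e-07).

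Other large falls rested on fewer arrays, probe sets or signal. H2-Ea, an MHC class II chain, had levels of 6.99, 11.01 and 14.90 in G6 tissue, against 13.74, 14.28 and 14.86 in DC101 tissue, and fell by 3.38 (SE 0.86, adjusted p = 0.0048; 0.10 with neighbouring arrays averaged). G6 arrays 9 to 12 lay at 6.99 to 7.74 and G6 arrays 13 to 16 at 14.27 to 14.90, with the same split in its other probe set, and control flank ran as low as 5.77. Idi2, an isoprenoid isomerase gene, had levels of 4.45, 4.78 and 5.32 in G6 tissue, against 4.57, 9.13 and 13.59 in DC101 tissue. Every G6 array lay below the filter level, so that it was at least 1.34-fold lower, and its call (fitted difference -4.08, SE 1.41, adjusted p = 0.047) was lost with 13 of the 16 arrays left out in turn. Msh5, a meiotic mismatch repair gene, fell by 2.30 (SE 0.38, adjusted p = 9.7e-06), and its other probe set gave 0.22 (adjusted p = 0.69). Ces2e, a carboxylesterase gene, passed the threshold (fitted difference -2.28, SE 0.39, adjusted p = 1.7e-05), but every G6 array and the DC101 mean of 8.08 lay below the filter level, so no bound can be given.

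The largest rises were smaller than the falls and came from many kinds of gene. Pgr, the progesterone receptor, had levels of 10.42, 11.48 and 12.98 in G6 tissue, against 8.89, 9.42 and 9.84 in DC101 tissue, 8.48, 9.27 and 11.16 in untreated tissue and 10.54, 11.37 and 13.76 in control flank. It rose by 2.01 (SE 0.44, adjusted p = 0.00092) without overlap. Panx3, a channel of skin and cartilage, had levels of 9.11, 9.94 and 10.55 in G6 tissue, against 7.09, 8.25 and 9.06 in DC101 tissue, and rose by 1.54 (SE 0.39, adjusted p = 0.0049). Slc29a2, a nucleoside transporter gene, was at least 1.06-fold higher, with every DC101 array below the filter level (fitted difference 1.61, SE 0.34, adjusted p = 0.00067). For these 3 genes no G6 array fell into the DC101 range. Itgb7, an integrin of lymphocytes, had levels of 8.60, 9.40 and 9.90 in G6 tissue, against 6.87, 7.26 and 9.73 in DC101 tissue, and rose by 1.70 (SE 0.44, adjusted p = 0.0057).

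Of the other large rises, Slitrk6, Smim27 and Sox2 lay below the filter level on every DC101 array and were at least 1.75-fold, 1.09-fold and 1.16-fold higher. Trim5 (fitted difference 2.82, adjusted p = 0.0047), Zfp235 (1.83, adjusted p = 0.0029) and the acetylcholine receptor subunit gene Chrne (1.72, adjusted p = 0.0033) were likewise below it on every DC101 array, and the G6 means did not stand above that level, so no bound can be given. Trim5 split into 2 levels within groups. G6 arrays 11 and 12 lay at 6.09 and 6.81 and the other G6 arrays at 8.35 to 9.15. Untreated arrays 1 to 4 lay at 5.09 to 6.84 and arrays 5 to 8 at 8.87 to 9.59. Ms4a4b (2.16, adjusted p = 0.018), Gabra3 (1.59, adjusted p = 0.032), Fam83f (1.56, adjusted p = 0.023) and Atp1b4 (1.48, adjusted p = 0.028) also passed. For every gene of this paragraph the groups overlapped. For Smim27, G6 arrays 13 and 14, at 6.62 and 6.43, lay below the DC101 mean of 6.86. With neighbouring arrays averaged, Trim5 (adjusted p = 0.089), Ms4a4b (0.12), Gabra3 (0.15) and Smim27 (0.059) did not pass. Without DC101 arrays 21 and 22, Slitrk6 (0.073), Atp1b4 (0.072) and Gabra3 (0.065) did not, and without G6 arrays 13 and 14 Ms4a4b (0.084) did not.

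At day 20 the same antibodies gave 36 genes (0.245% of those tested), 20 higher and 16 lower, with 1882 at an unadjusted p under 0.05. Of the 36, 15 were also among the day 5 calls. They included Btnl9 (-1.44, adjusted p = 0.049), Adm (-1.05, 0.032) and Alas2 (-2.50, 0.049), all lower with G6 on both days. The difference between the days was tested itself, day 5 minus day 20, and passed for 447 genes (3.04%), 204 of them more positive and 243 more negative at day 5. None of the 29 pan-endothelial genes passed at day 20, where their median was -0.27. The difference between the days passed for 9 of them, all more negative at day 5. Ushbp1 stood at -3.53 at day 5 and -0.64 at day 20 (difference -2.89, SE 0.59, adjusted p = 0.0018), and Robo4 at -2.27 and -0.50 (-1.77, adjusted p = 0.00088). Esm1 stood at -3.91 and -1.16 (-2.75, adjusted p = 0.036). For Emcn, at -2.24 and -0.85, the difference between the days did not pass (adjusted p = 0.078). Nor did it pass for Kdr, at -1.55 and -0.92 (adjusted p = 0.40), Flt1, at -1.38 and -0.85 (0.57), or Fam167b, at -3.63 and -1.51 (0.08). Pgr was higher with G6 at day 5 and stood at -0.92 at day 20 (2.93, adjusted p = 0.0029).

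**Figure D5:**
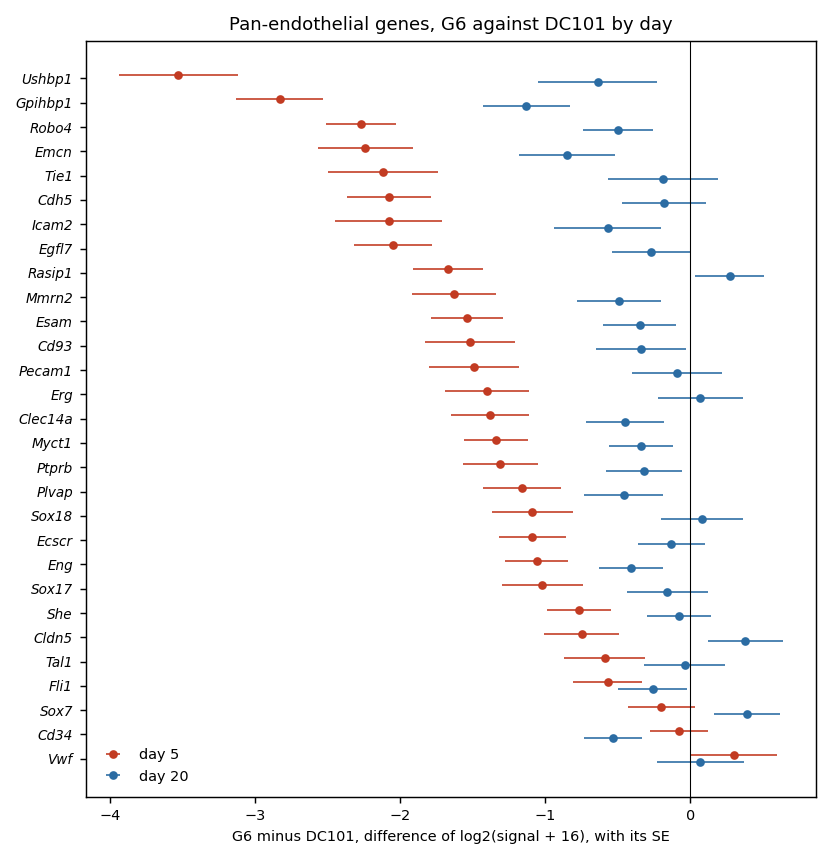
Difference of log2(signal + 16), G6 minus DC101, with its SE, for the 29 pan-endothelial genes at day 5 and at day 20 (8 arrays a group). The day 5 points run to -3.53 for Ushbp1, while the day 20 points lie closer to 0, the lowest being Gpihbp1 at -1.13.

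At day 60, with 8 G6 and 6 DC101 arrays, 5955 genes passed (40.5%), and 4379 (29.8%) differed between day 5 and day 60. RNA integrity moved with the groups there: the Actb ratio was 1.81 to 3.03 in G6 tissue and 1.17 to 1.56 in DC101 tissue, without overlap. With the RNA ratios as covariates limma called 0 genes at day 60, where 1777 had an unadjusted p under 0.05, and 323 for the difference between the days. Of the 29 pan-endothelial genes 23 were lower and 0 higher at day 60 without these covariates, with a median of -1.08. The difference between day 5 and day 60 passed for 8 of them, 5 of these more negative at day 5. Esm1 stood at -2.92 at day 60 and Kdr at -0.65 (adjusted p = 9.7e-05 and 0.062), and the difference of either from day 5 did not pass (adjusted p = 0.38 and 0.068).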

How the data were processed

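RNA of flank tissue was hybridised to 1 Affymetrix mouse expression array per sample. MAS5 in GCOS 1.3 made the signals, per the submitters' processing notes. The values deposited by the authors are MAS5 signal intensity on a linear scale, from 0.15 to 186384.77, and a trimmed mean (over 96% of probe sets) of 1500 on each array. Arrays give no counting depth, and their number limits the precision.

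Probe sets with 1 gene symbol (34958 of 45101) were kept where the signal exceeded 331, the 40th percentile, on at least 6 arrays. Each of 14718 genes was its brightest probe set on log2(signal + 16). A limma model (3.58.1, R 4.3.3) was fitted over 78 arrays in 10 groups, with eBayes, an intensity trend and Benjamini-Hochberg adjustment over all genes. Tests were two-sided, and the fit was tested on simulated data. Groups came from the labels. With all arrays of a group below the filter level, the fold is known only as a bound, the other group's mean over that level where the mean exceeds it, and a difference printed for such a gene is the fitted one.

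The members and the 32 gene lists (550 of 611 entries tested, 4 by synonym) were chosen with earlier results of these data known. Named genes are the 15 largest rises and falls, passing over clone and predicted symbols, the 2 largest calls of each list, the 6 largest in each direction of each difference between days, and Vegfa, Flt1, Kdr, Pgf, Esm1, Angpt2 and Apln. Other list members were named after their values were seen. Alternatives were the pseudocount, filter, normalization, probe set rule, array weights, groups in the fit, averaged neighbouring arrays, RNA ratios and single arrays left out. Arrays 21 and 22 and the random block were chosen after seeing the data. No 2 of the 16 arrays were copies (highest correlation 0.977).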

Additional observations from a re-analysis of the deposited data

Results flagged for a closer look

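The difference between G6 and DC101 itself differed between day 5 and day 20 for 447 genes (3.04%) by limma at an adjusted p under 0.05. Among the 113 genes named here 37 passed, but the names were chosen partly by this difference and by the day 5 values. That count is therefore no result about the named genes. Some genes of the vessel lists, with Pcdh12 and Kcnq1, were more negative at day 5, by -2.89 for Ushbp1, -2.75 for Esm1, -2.48 for Kcne3, -2.22 for Pcdh12, -2.19 for Notch4, -2.09 for Kcnq1 and -2.03 for Gja4. The same held for Rasip1 (-1.94), Tie1 (-1.93), Cdh5 (-1.90), Egfl7 (-1.78), Robo4 (-1.77), Gpihbp1 (-1.70), Hey1 (-1.48), Erg (-1.47), Esam (-1.19), Dll4 (-1.15), Apln (-1.03) and Hes1 (-0.94). Matrix genes in this direction were Nid2 (-1.51), Adam12 (-1.51), Col4a2 (-1.44) and Col18a1 (-1.41). Outside the vessel lists, the difference was -2.63 for Rnf39, -2.46 for Saa3, -2.45 for Wscd1, -2.19 for Msh5, -1.07 for Fkbp5 and -1.03 for Per2. Genes more positive at day 5 were Trim5 (4.69), Pgr (2.93), Gabra3 (2.74), Chrne (2.30), Akr1c14 (2.17), Gpx5 (2.04), Ccr2 (1.72) and Per3 (0.71). Trim5 split into 2 levels within G6 and within untreated tissue at day 5. Saa3, Akr1c14 and Gpx5 did not pass at day 5 itself (-0.66, 0.70 and 0.72). The values are fitted ones for Kcnq1, Per2, Rnf39, Wscd1, Trim5 and Chrne, which lay below the filter level on every day 5 array of G6 or of DC101.

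Between day 5 and day 60 the difference itself differed for 4379 genes, and for 323 with the RNA ratios as covariates. The largest among genes more positive at day 5 were Trim5 (5.63), Myoz3 (4.78), Mybph (3.94), Pgr (3.92), Ugt8a (3.89) and Actn3 (3.89). On the negative side they were Krt33a (-3.80), Pole (-3.66), Lce3c (-3.45), Rnf39 (-3.40), Ndc80 (-3.38) and Krtap14 (-3.11). RNA integrity differed between the groups at day 60, and its part in these values was not tested gene by gene.

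A single array lay far from the 7 others in 11 of 290 groups of 8 values examined (3.79%), where chance alone flags about 5%. In G6 tissue array 12 was low for Pole (5.93, others 8.36 to 9.68), Mrgprb1 (8.47, others 9.25 to 9.92) and Vegfc (9.41, others 10.20 to 10.50) and high for Idi2 (5.32, others 4.45 to 4.86). G6 array 11 was high for Ces2e (7.51, others 5.16 to 5.88), array 10 low for Nid2 (9.63, others 10.20 to 10.68) and array 16 low for Dll4 (7.70, others 8.31 to 8.84). In DC101 tissue array 24 was high for Tfpi2 (12.47, others 11.03 to 11.60) and Erg (11.75, others 10.87 to 11.28), array 22 low for Selp (9.28, others 10.36 to 11.02) and array 23 high for the neutrophil and acute inflammation list (10.74, others 9.59 to 10.08).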

How the results depend on the processing

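The 1688 day 5 calls became 2586 with array weights, 901 with neighbouring arrays averaged, 1117 with a random block of neighbouring arrays (consensus correlation 0.18) and 250 at a 2-fold minimum. Leaving out each array in turn gave 1312 (without DC101 array 24) to 1854 (without DC101 array 20). Averaging probe sets per gene gave 1581, split 605 higher and 976 lower, against 856 and 832. At day 20 the 36 calls became 593 with array weights, 86 with RNA ratios as covariates, 15 with the mean of probe sets, and in limma 0 with neighbouring arrays averaged or with only the groups compared (1430 and 1551 at an unadjusted p under 0.05). At day 60 RNA ratios gave 0. For day 5 minus day 20 array weights gave 800, only the groups compared 274 and neighbouring arrays averaged 107, and for day 5 minus day 60 RNA ratios gave 323. Other probe sets turned the sign of 9 genes named: Vegfa (0.88), Rcan1 (-2.29), Ccr2 (-0.81), Msh5 (0.22), Pdk1 (-0.29), Per3 (-0.07), Atp5a1 (-0.04) and, with no call by either probe set, Myoz3 (-0.07) and Ugt8a (-0.01). The cause was not tested. Of the 78 genes named by rule 65 were past the threshold, and 50 of these stayed past it with every single array left out. With neighbouring arrays averaged, 21 of the 65 lost the call. No paired analysis was possible because the groups share no replicate numbers. Low signal limits the genes below the filter level to bounds.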
